A study of Mus musculus with 35 samples.

Results

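Microglia isolated from the striatum were compared with microglia isolated from the prefrontal cortex (PFC) of the same mice. The members were chosen by the brain region in the labels, which gave 12 striatum libraries and 11 PFC libraries of 35 in the series, and 11 mice (5 males and 6 females) had a library from both regions. The mice were adult C57Bl/6J animals that carried Tmem119-2A-CreERT2 together with the reporter Ai14(RCL-tdTomato)-D. All received tamoxifen, so no library came from an untreated mouse, and by the study's methods age and the time since the last tamoxifen dose were ranges rather than single values. Tamoxifen switches on Cre recombinase in cells that use the Tmem119 promoter, Cre removes a stop signal in front of the red reporter tdTomato, and tdTomato-positive cells were sorted by fluorescence, so each library holds a sorted population of Tmem119 lineage from 1 region of 1 mouse.

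Microglia survey brain tissue through purinergic and chemokine receptors, clear debris and synapses through phagocytic receptors, and renew by local division. In aging, demyelination and amyloid disease they lower a homeostatic gene set and induce a disease-associated set of lipid-handling, phagocytic and lysosomal genes, and part of that set is also used by microglia of white matter. The striatum is crossed by bundles of myelinated fibres and borders the lateral ventricle, while the PFC is a cortical grey matter region. The question addressed was whether microglia of the 2 regions differ in transcript expression.

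Microglial identity was checked first. The marker Tmem119 was at 2987 to 3861 CPM (counts scaled to the size of each library) in striatum and 2834 to 3750 CPM in PFC, and Cx3cr1 was at 4071 to 5388 and 4340 to 5810 CPM. The tables held 39462648 to 51704354 counts per striatum library and 37680501 to 52429530 per PFC library, so 3 counts corresponded to 0.056 to 0.079 CPM. More genes had a count in striatum (18127 to 19671) than in PFC (16725 to 19454), and this held in 11 of 11 mice. The fewest, 16725, were found in the PFC library of mouse 1. One column of the table carries PFC in its name while the sample with the same mouse, library and index number is labelled striatum; it was used as the striatum library of mouse 3, which has no PFC library. Its summed striatal projection neuron markers (19.3 CPM; 7.32 to 22.2 in striatum, 0.473 to 8.81 in PFC) and its level of the cortical glutamate transporter gene Slc17a7 (0.638 CPM; lowest PFC library 0.93) lay outside the PFC range. Its summed cortical excitatory neuron markers, in contrast, were above those of all other libraries of both regions (740 CPM; PFC 615 to 715), with 86.5% of that list's counts from Mef2c, which microglia also express. Calls without that library are given below.

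A transcript was called differentially expressed (DE) by the rule of the study: an effect of region across striatum, PFC and midbrain (adjusted p under 0.05), a striatum against PFC p under 0.05 and a fold change above 1.2. By edgeR's quasi-likelihood test, 667 of 21236 transcripts were DE (3.14%). Of these, 490 were higher in striatum (2.31%) and 177 lower (0.833%). A stricter call, an adjusted p under 0.05 for striatum against PFC over all transcripts, was met by 121 (0.57%), 83 higher (0.391%) and 38 lower (0.179%), and 110 transcripts met both. With the mouse as a block, which uses the pairing of the 2 regions within a mouse, the counts were 1032 DE (780 or 3.67% higher, 252 or 1.19% lower; 567 shared with the unblocked calls) and 614 with the stricter call (403 or 1.9% higher, 211 or 0.994% lower; 112 shared). Without the striatum library of mouse 3 they were 672 and 127. The median log2 fold change over all transcripts was 0.01. Each library pools many cells, so a larger share of expressing cells and more RNA per cell cannot be told apart.

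**Figure D1:**
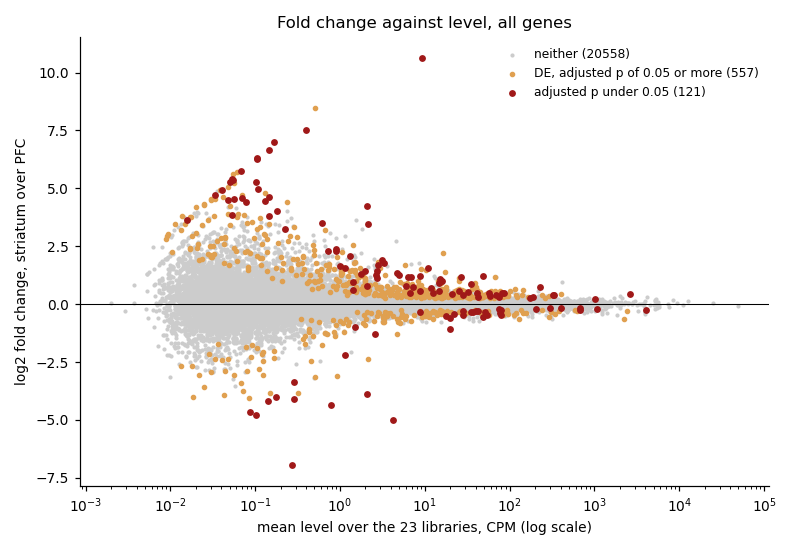
Log2 fold change (striatum over PFC, vertical axis) against mean level in CPM over the 23 libraries (horizontal axis, log scale) for all transcripts; orange points are DE without an adjusted p under 0.05, red points have an adjusted p under 0.05. Calls above 5 CPM lie mostly within 2-fold of no change, and the median fold size of DE transcripts is largest at 0.5 CPM or less. Some transcripts above 1 CPM also have wide folds, such as Npy (log2 -5.01).

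Most DE transcripts at measurable levels differed by little. In the 302 DE transcripts that averaged 5 CPM or more, the median size of the log2 fold change was 0.41. Another 181 DE transcripts had a mean of at most 0.5 CPM, where the median size was 2.89. Higher calls outnumbered lower ones at both levels, with 327 (2.66%) against 117 (0.953%) among transcripts of at least 1 CPM. In 33 transcripts with a call every PFC library was at 0, and in 1 every striatum library was. The number of detected genes moved with region as described above; with that number as a covariate 352 were DE (197 higher, 155 lower) and 18 had an adjusted p under 0.05. With the mean level of markers of endothelium, oligodendrocytes, astrocytes and neurons in the fit (the marker index) 346 were DE (200 higher, 146 lower) and 28 had an adjusted p under 0.05.

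Among transcripts of at least 5 CPM that moved the same way in at least 10 of 11 mice, the one with the largest increase in striatum was Lpl (chr8:68880491-68907448, GRCm38), lipoprotein lipase, which releases fatty acids from triglycerides. Lpl was at 9.31 CPM in the lowest, 14.2 in the median and 27.6 in the highest striatum library, against 1.36, 5.44 and 8.10 in PFC. The groups did not overlap, and the lowest striatum library (mouse 6) was above the highest PFC library (mouse 9). The log2 fold change was 1.58 ± 0.24 (SE; adjusted p = 0.000422, edgeR). It kept an adjusted p under 0.05 in all 27 alternative fits, with the 13 fits that left out a library or mouse between 1.46 and 1.67.

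Lgals3 (chr14:47367751-47386160), which encodes the carbohydrate-binding lectin galectin-3, was at 4.62 to 10.3 CPM in striatum (median 6.93) and 1.42 to 5.48 in PFC (median 2.15). Clec7a (chr6:129461591-129472779), the beta-glucan receptor Dectin-1, was at 7.17 to 22.6 CPM in striatum (median 11.4) and 1.65 to 8.12 in PFC (median 5.70); the annotation used lists it as a polymorphic pseudogene. Both groups overlapped at their edges, and both genes were higher in striatum in 11 of 11 mice. Their log2 fold changes were 1.24 ± 0.21 and 1.23 ± 0.21 (SE; adjusted p = 0.00153 for each, edgeR).

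Emp3 and Naalad2 had the lowest adjusted p of this set, 4.88e-05 each by edgeR. Emp3 (chr7:45918023-45921404), a small membrane protein of the PMP22 family, was at 13.1, 20.5 and 33.8 CPM (lowest, median and highest) in striatum and 6.39, 11.8 and 14.1 in PFC. Naalad2 (chr9:18321951-18402995), a peptidase of the family that cleaves N-acetyl-aspartyl-glutamate, was at 31.4, 47.1 and 57 CPM in striatum and 15.2, 22.1 and 36.6 in PFC. Each was higher in striatum in 11 of 11 mice with a small overlap of the groups, by 1.0 ± 0.13 and 0.89 ± 0.12 on the log2 scale (SE).

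**Figure D2:**
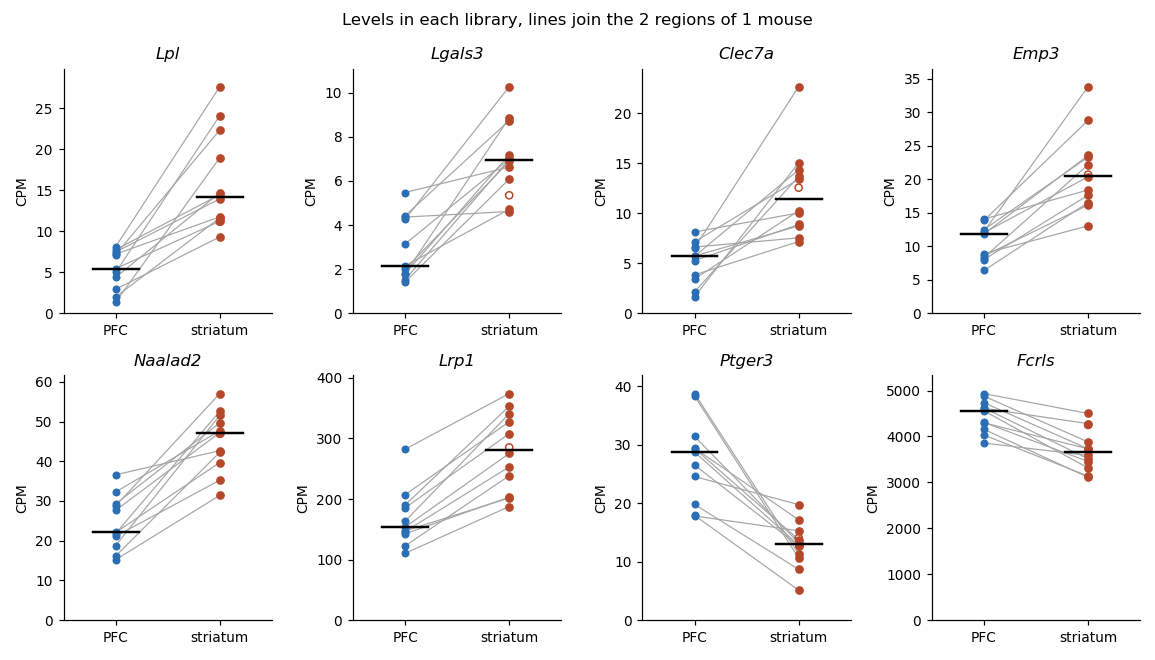
CPM (vertical axes, from 0) in each PFC (blue) and striatum (red) library for 8 named genes; lines join the libraries of 1 mouse, the open circle is the mouse 3 striatum library and black bars are medians. Lpl, Lgals3, Clec7a, Emp3, Naalad2 and Lrp1 lines rise and Ptger3 and Fcrls lines fall from PFC to striatum in 11 of 11 mice.

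Lrp1 (chr10:127538161-127621148), an endocytic receptor for lipoproteins and other ligands, was at 188 to 374 CPM in striatum (median 280.2) and 110.3 to 282 in PFC (median 154), a log2 difference of 0.73 ± 0.14 (SE; adjusted p = 0.00472, edgeR). The remaining higher transcripts of the set rose by 0.69 to 1.2 on the log2 scale. Rrbp1, a ribosome receptor of the endoplasmic reticulum, had a median of 68.3 CPM in striatum and 27.2 in PFC. Medians of the actin-linked signalling gene Ccdc88b were 38 and 11.9 CPM, and those of the lymphoid transcription factor gene Pou2f2 were 22.3 and 8.71 CPM. Cryab, a small heat shock protein of glia, had medians of 6.94 and 3.49 CPM. Neat1, the RNA scaffold of nuclear paraspeckles, had medians of 17.6 and 10.2 CPM. Hectd4, the secreted-protein kinase gene Fam20c and the metalloprotease gene Adamts16 also belonged to the 15. Cryab is also used by oligodendrocytes, whose markers are given below, and their part in this result was not tested.

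Ptger3 (chr3:157566892-157645888), a prostaglandin E2 receptor that couples to inhibition of cAMP synthesis, was at 5.12, 13 and 19.8 CPM (lowest, median and highest) in striatum and 17.8, 28.8 and 38.8 in PFC. The groups overlapped between 17.8 and 19.8 CPM, and Ptger3 was lower in striatum in 11 of 11 mice, by 1.09 ± 0.21 on the log2 scale (SE; adjusted p = 0.0085, edgeR). The other 14 genes of the lower set fell by 0.28 to 0.59 on the log2 scale. They included Pde4b, a phosphodiesterase that degrades cAMP (medians 69.8 CPM in striatum and 93.7 in PFC), Bank1, a B cell signalling scaffold (69.5 and 86.9), and Cryz, a quinone reductase (23.5 and 32.7). Ggt5, a transferase that acts on glutathione and leukotrienes, had medians of 32.0 and 41.0 CPM and was lower in 11 of 11 mice. The rest were Zfp429, Taf7, Leng9, 2310031A07Rik, Hps6, Fem1b, Xlr, Utp3, Med11 and the processed pseudogene Gm6768. Cryab, Leng9, Cryz and 2310031A07Rik overlap a gene on the other strand, and the strand setting of the counting is not given in the sources used here, so their reads cannot be told apart from those of the partner. The same holds for Cdc20, Stab1, Tln1, Il1a, Cd9, Il6ra, Ctsa and P2ry12 below. Xlr and Zfp429 belong to families with near-identical copies and Gm6768 is a pseudogene, so their counts are uncertain.

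Of 28 measured members of the disease-associated microglia set, 7 were DE and higher (25%, against 2.31% of all transcripts) and 0 lower, 27 had a positive log2 fold change, and the median was 0.23. The 7 were Lpl, Lgals3, Clec7a, the bridging protein and osteopontin gene Spp1, the integrin gene Itgax, the receptor tyrosine kinase gene Axl and the phosphatidylserine-binding annexin gene Anxa5. Lpl, Lgals3, Clec7a and Anxa5 also had an adjusted p under 0.05 (Anxa5 0.29 ± 0.05 on the log2 scale, SE; adjusted p = 0.00426, edgeR). Axl ranged from 8.42 to 39.3 CPM in striatum and 5.29 to 24.9 in PFC and was higher in 11 of 11 mice (log2 0.91 ± 0.26, SE; adjusted p = 0.0979, edgeR). Spp1 ranged from 3.62 to 38.8 and 0.232 to 12.5 CPM (log2 1.46 ± 0.44, SE; adjusted p = 0.119, edgeR). Cd68 and Cd9, a lysosomal glycoprotein and a tetraspanin, had an adjusted p under 0.05 with the mouse as a block and not without it (log2 0.23 and 0.26; adjusted p = 0.00434 and 0.00196). Across 27 alternative fits the number higher ran from 5 to 9 and the number lower was 0.

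Of 32 measured phagocytic and scavenger receptors, 8 were DE and higher (25%, against 2.31% of all transcripts) and 0 lower (median log2 fold change 0.17). The lists overlap, since Axl and Clec7a belong to both. The others were Lrp1, the fatty acid scavenger receptor gene Cd36, the hyaluronan scavenger receptor gene Stab1, the vitronectin receptor subunit gene Itgb3, Mfge8, which bridges apoptotic cells to integrins, and Cd93. Itgb3 was at 32.7 to 60.6 CPM in striatum and 24.3 to 50.8 in PFC (log2 0.49 ± 0.10, SE; adjusted p = 0.0135, edgeR). Stab1 had medians of 144 and 103 CPM with an adjusted p of 0.0542 by edgeR (0.0129 with the mouse as a block). Cd93 was at or under 0.56 CPM in every library and is also an endothelial gene. The summed level of the list was higher in striatum in 11 of 11 mice, at 10500 to 12200 CPM against 9360 to 11400. By edgeR 4 members had an adjusted p under 0.05. With the marker index 5 were DE and higher and 1 had an adjusted p under 0.05, with the number of detected genes as a covariate 6 and 1. In mice 7 to 12 alone these counts were 5 and 0. Across 27 alternative fits the number DE and higher ran from 5 to 9.

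Of 44 measured cholesterol and lipid handling genes, 8 were DE and higher (18.2%, against 2.31% of all transcripts) and 0 lower (median log2 fold change 0.09). Besides Lpl, Lrp1 and Cd36 these included the sterol-sensing transcription factor gene Srebf2, the fatty acid synthase gene Fasn, the lipid droplet coat gene Plin3 and the phospholipid transfer protein gene Pltp. Plin3 rose from a median of 18.7 to 23.2 CPM in 11 of 11 mice (log2 0.42 ± 0.10, SE; adjusted p = 0.0308, edgeR). Fasn was at 4.97 to 15.0 CPM in striatum and 3.01 to 8.90 in PFC (log2 0.77 ± 0.19, SE; adjusted p = 0.0501, edgeR, and 0.00827 with the block). Members with an adjusted p under 0.05 numbered 3 without and 6 with the block. With the marker index or the number of detected genes as a covariate 4 members were DE and higher.

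Of 33 actin and adhesion genes 7 were DE and higher (21.2%, against 2.31% of all transcripts) and 0 lower, with a median log2 fold change of 0.21, while the summed list was higher in striatum in 4 of 11 mice. With the marker index 4 were higher and the median was 0.03, and with length and GC offsets 6 were higher and 2 lower. Anxa2, a membrane-actin linker, was at 1.33 to 4.55 CPM in striatum and 0.364 to 1.84 in PFC (log2 1.45 ± 0.23, SE; adjusted p = 0.000923, edgeR). Emp3 and Anxa5 passed the stricter call too. The focal adhesion gene Tln1 (medians 179 and 78.3 CPM), the non-muscle myosin gene Myh9 (45.6 and 20.8), Flna and Vim were DE with an adjusted p of 0.05 or more, and under 0.05 with the mouse as a block, where 7 members passed. Among interleukin and interferon receptors 3 of 31 were DE and higher (9.68%, against 2.31% of all transcripts), the interleukin-6 receptor gene Il6ra and both chains of the GM-CSF receptor, Csf2ra and Csf2rb. With the block there were 7, with the marker index 1, and with 1 mouse or library left out 1 (without mouse 2) to 5 (without mouse 1); without mice 4, 5, 7, 9, 10 or 12 there were 2. Csf2ra was the only one with an adjusted p under 0.05, and without mice 1, 2, 4, 6, 7, 8, 9, 10 or 12 the list had 0. Csf2ra was at 27.1 to 49.1 CPM in striatum and 19.8 to 39.7 in PFC, higher in 11 of 11 mice (log2 0.50 ± 0.12, SE; adjusted p = 0.0411, edgeR).

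**Figure D3:**
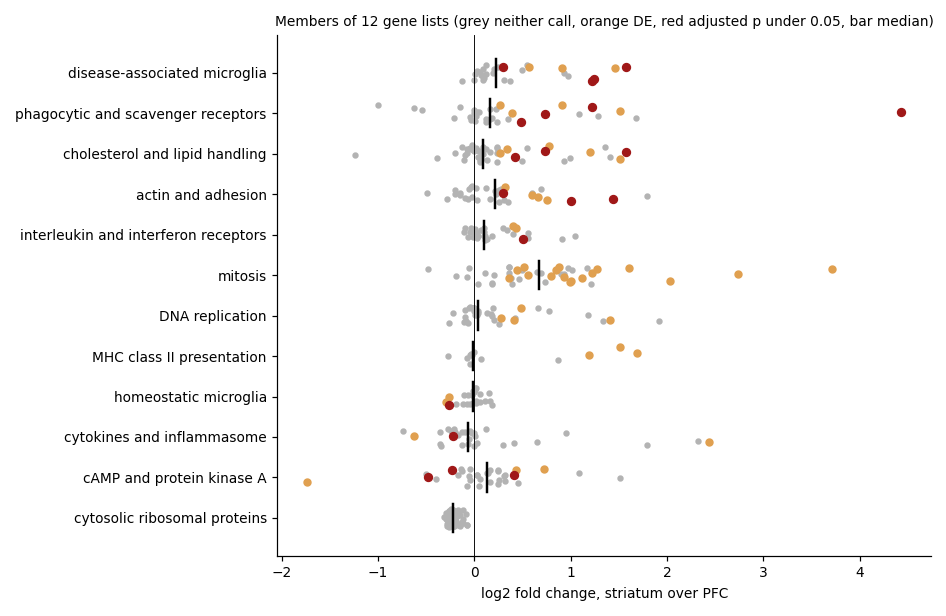
Log2 fold change (striatum over PFC, horizontal axis) of each measured member of 12 gene lists (rows); grey points met neither call, orange points were DE, red points had an adjusted p under 0.05 and black bars are list medians. Disease-associated, phagocytic, lipid, adhesion and mitosis members called DE lie to the right of 0, and the 78 ribosomal protein genes lie to the left with none called.

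Mitotic genes were at low levels. Of 42 measured members 17 were DE and higher (40.5%, against 2.31% of all transcripts) and 0 lower, with a median log2 fold change of 0.67, but 0 had an adjusted p under 0.05 by edgeR (18 had an unadjusted p under 0.05, and 5 passed by DESeq2). With the mouse as a block 24 were DE and 4 had an adjusted p under 0.05. Top2a, which untangles DNA before chromosome separation, was at 0.816, 3.04 and 3.90 CPM (lowest, median and highest) in striatum and 0.0215, 1.15 and 3.45 in PFC, higher in 11 of 11 mice. Cdc20, an activator of the anaphase-promoting complex, was at 2.15, 2.81 and 5.15 CPM and 0.429, 1.72 and 3.37 CPM (log2 0.88 ± 0.23, SE; adjusted p = 0.0644, edgeR, and 0.0127 with the block). Cdk1, the mitotic kinase, had medians of 3.44 and 2.86 CPM, and Ube2c, which ubiquitinates cyclins, 1.10 and 0.525.

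The low levels set limits on these values. The lowest Top2a value was that of the PFC library of mouse 1, which had the fewest detected genes. Leaving out 1 mouse or library gave 13 to 18 higher members, and a covariate for the number of detected genes or for the marker index gave 9. The largest share of the list's counts (32.6%) came from Ncaph, a condensin subunit with a log2 fold change of -0.07 (adjusted p = 0.751, edgeR). Of 35 DNA replication genes 4 were DE and higher (Rrm2, Tk1, Gins1 and E2f2, 11.4%, against 2.31% of all transcripts) and 0 lower, with a median of 0.04.

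Promoters of 4 of the DE mitotic genes are shown. Late cell cycle genes are known for 2 short elements near their start sites, the CCAAT box and the cell cycle homology region. The letters CCAAT and TTTGAA were searched on both strands of RefSeq windows of 300 bases (GRCm38.p6, from 250 bases before to 50 after a start). Of the 37 mitosis genes with a window, 27 held TTTGAA (73%), against 1826 of 12442 genes of the table with a window (14.7%), and 26 held CCAAT (70.3%, against 42.2%). Of the 17 that were DE, 11 held TTTGAA (64.7%), and of 28 DNA replication genes 4 did (14.3%). The first 250 bases of 4 of these windows follow, 5′ to 3′ on the gene's strand, with each match to either motif on either strand in capitals (ATTGG and TTCAAA are the reverse complements). Adjacent matches run together. The matches are a description of the letters and not of bound sites.
Cdk1 (chr10:69352913-69353162, minus strand): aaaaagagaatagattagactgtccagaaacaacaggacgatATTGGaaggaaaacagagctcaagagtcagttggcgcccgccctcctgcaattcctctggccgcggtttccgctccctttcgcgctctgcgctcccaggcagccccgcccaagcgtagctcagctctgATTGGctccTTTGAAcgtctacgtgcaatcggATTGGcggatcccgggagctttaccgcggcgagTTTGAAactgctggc
Top2a (chr11:99024190-99024439, minus strand): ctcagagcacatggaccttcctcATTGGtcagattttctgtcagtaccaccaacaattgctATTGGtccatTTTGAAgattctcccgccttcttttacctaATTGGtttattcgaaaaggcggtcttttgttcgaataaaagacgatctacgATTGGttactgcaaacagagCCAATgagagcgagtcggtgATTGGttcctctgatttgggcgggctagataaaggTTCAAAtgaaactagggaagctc
Cdc20 (chr4:118437344-118437593, minus strand): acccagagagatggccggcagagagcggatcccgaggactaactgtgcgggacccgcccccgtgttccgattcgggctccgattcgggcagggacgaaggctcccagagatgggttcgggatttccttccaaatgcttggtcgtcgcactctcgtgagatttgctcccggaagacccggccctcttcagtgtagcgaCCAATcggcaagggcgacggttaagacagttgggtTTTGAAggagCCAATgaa
Ube2c (chr2:164769679-164769928, plus strand): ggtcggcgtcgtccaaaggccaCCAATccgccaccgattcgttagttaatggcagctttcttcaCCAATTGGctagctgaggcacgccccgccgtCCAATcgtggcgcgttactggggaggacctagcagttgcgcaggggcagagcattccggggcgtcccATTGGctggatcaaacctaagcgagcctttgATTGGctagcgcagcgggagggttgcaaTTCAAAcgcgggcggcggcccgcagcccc

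Homeostatic microglial genes had few calls. Of 25 members 0 were DE and higher and 2 lower (8%, against 0.833% of all transcripts), the lens crystallin gene Crybb1 and the uroplakin gene Upk1b, and the median log2 fold change was -0.01. The number lower was 1 without mice 2, 5, 7, 9, 10 or 11, 3 without mice 6, 8 or 12, and 0 with the marker index, the number of detected genes or 1 surrogate variable. Fcrls (chr3:87250758-87263738), an Fc receptor-like molecule typical of microglia, was at 3111, 3660 and 4502 CPM (lowest, median and highest) in striatum and 3858, 4558 and 4935 in PFC. It was lower in striatum in 11 of 11 mice with overlapping groups, by 0.26 ± 0.06 on the log2 scale (SE; adjusted p = 0.0241, edgeR), a fold of 1.198 that falls short of the minimum of 1.2; with the block it was DE. P2ry12, the ADP receptor that steers process movement, had a log2 fold change of -0.11 ± 0.06 (SE; adjusted p = 0.524, edgeR) and was higher in striatum in 4 of 11 mice. Summed, the list was at 108000 to 137000 CPM in striatum and 104000 to 134000 in PFC.

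Cytokine and inflammasome genes included 1 higher and 1 lower DE member of 31 (3.23% each, against 2.31% and 0.833% of all transcripts). The lower member was Il1a, interleukin-1 alpha, at 440 (mouse 8), 1887 and 2504 CPM in striatum and 2290, 2677 and 3774 in PFC. Only 2 striatum libraries were above the lowest PFC library, and Il1a was lower in 10 of 11 mice (log2 -0.62 ± 0.19, SE; adjusted p = 0.123, edgeR). Nfkb1, a subunit of the inflammatory transcription factor NF-kappaB, fell by 0.22 ± 0.05 on the log2 scale in 11 of 11 mice (SE; adjusted p = 0.0315, edgeR) and its inhibitor gene Nfkbia had a log2 fold change of -0.28 (adjusted p = 0.295, edgeR, and 0.029 with the block). The higher member, Nlrc4, was at or under 0.122 CPM in all libraries. The summed list was lower in striatum in 11 of 11 mice, at 4270 to 10300 CPM against 9160 to 12700, and Nfkbia and Il1a held 34.5% and 23.6% of it. Immediate early and ex vivo activation genes, which tissue dissociation is known to induce, had 0 higher and 1 lower DE member of 35 (2.86%, against 0.833% of all transcripts). Their median log2 fold change was -0.08, and their sum was higher in striatum in 6 of 11 mice. With the block 1 was higher and 5 lower, and 2 of the lower had an adjusted p under 0.05.

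In cAMP and protein kinase A signalling, which lies downstream of Ptger3, 3 of 33 members were DE and higher (9.09%, against 2.31% of all transcripts). Another 2 were lower (6.06%, against 0.833%). With the marker index 1 was higher and 2 lower, and with the number of detected genes as a covariate 1 and 1. Prkar1a, the regulatory subunit of protein kinase A, was at 582, 632 and 692 CPM (lowest, median and highest) in striatum and 656, 731 and 852 in PFC. It fell in 11 of 11 mice by 0.24 ± 0.04 on the log2 scale (SE; adjusted p = 0.00153, edgeR), a fold of 1.177 that is below the minimum of 1.2. Gnas, the stimulatory G protein subunit, was higher in 11 of 11 mice with medians of 381 and 287 CPM (log2 0.41 ± 0.08, SE; adjusted p = 0.00761, edgeR), but Gm20721 on the other strand had nearly the same counts (medians 375 and 281 CPM), so the reads of the 2 cannot be told apart. Pde1b and Akap9 were also higher and Adcy1 and Pde4b lower by the DE rule. Of 21 measured prostaglandin pathway genes, Ptger3 included, 0 were DE and higher and 1, Ptger3, was lower (4.76%, against 0.833% of all transcripts). With the block 2 were higher and 1 lower.

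Of the remaining transcripts that the study named, several differed by under 1.2-fold. Selplg, the ligand of P-selectin, was at 5402 ± 557 CPM in striatum (SD, n = 12) and 4825 ± 418 in PFC (SD, n = 11), higher in 10 of 11 mice, with a log2 fold change of 0.16 ± 0.05 (SE; adjusted p = 0.171, edgeR, and 0.00507 with the block). Il6ra was DE at 108 ± 16.8 and 81.6 ± 20.7 CPM (SD; log2 0.40 ± 0.12, SE; adjusted p = 0.103, edgeR, and 0.0148 with the block). B2m, Slc6a6, Ctsa and Cd164 had adjusted p of 0.375 to 0.977 by edgeR and log2 fold changes of -0.10 to 0.08. Peroxisome, lysosome and TGF-beta lists had 0 DE members of 44, 45 and 27 by edgeR, and with the block 4 lysosomal genes were higher and 1 lower with an adjusted p under 0.05, as were 1 and 3 peroxisomal genes, of which 1 was DE and higher.

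Among MHC class II genes, H2-Aa, H2-Eb1 and the invariant chain gene Cd74 were DE and higher (3 of 12 measured, 25%, against 2.31% of all transcripts), with 0 adjusted p under 0.05 by edgeR. The list had 5 positive and 7 negative log2 fold changes with a median of -0.01. Its sum was higher in striatum in 6 of 11 mice, but Ctss held 93.5% of that sum, so it mostly follows Ctss. Cd74 was at 36.1, 77.1 and 184 CPM (lowest, median and highest) in striatum and 15.0, 40.1 and 71.6 in PFC, higher in 10 of 11 mice. H2-Aa was at 0.953, 9.94 and 32.1 CPM and 0.292, 2.67 and 12.5 CPM, but was higher in only 6 of 11 mice, and H2-Eb1 in 8 of 11. The striatum libraries of mice 4 and 9 had the highest H2-Aa (32.1 and 32.0 CPM) and Cd74 (184 and 179 CPM), while the PFC libraries of these mice were at 0.542 and 2.03 CPM of H2-Aa and 15.0 and 40.01 CPM of Cd74. The same 2 libraries and that of mouse 1 also held the choroid plexus transcript Ttr, at 20.4, 49.4 and 142 CPM, against at most 2.70 in the other striatum libraries and 0.0418 in PFC. Of 11 measured markers of border-associated macrophages, which also carry MHC class II, 2 were DE and higher (Ms4a7 and Stab1, 18.2%, against 2.31% of all transcripts). The markers had a sum of 110 to 198 CPM in striatum and 97.7 to 151 in PFC. Stab1, also counted above as a scavenger receptor, held 85.2% of that sum, so it mostly follows Stab1. Mrc1 had medians of 3.99 CPM in striatum and 5.37 in PFC. The part of these macrophages in the MHC class II values was not tested. Without mouse 4, 0 of H2-Aa, H2-Eb1 and Cd74 were DE. The list also had 0 DE members with the marker index, with the number of detected genes as a covariate and in mice 1 to 6 alone. Interferon-stimulated genes had 1 higher (Ifitm2) and 2 lower (Gbp3 and Slfn2) DE members of 35 (2.86% and 5.71%, against 2.31% and 0.833% of all transcripts). MHC class I genes had 0 of 19.

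All 78 cytosolic ribosomal protein genes had a negative log2 fold change, with a median of -0.22, and 0 were DE by edgeR. With the block 10 were DE and lower and 13 had an adjusted p under 0.05, with the block in striatum and PFC libraries alone 0 and 9, and with length and GC offsets and the block 36 and 41. Their share of counts was 0.715% to 1.41% in striatum and 0.728% to 1.69% in PFC, lower in striatum in 9 of 11 mice. With 1 surrogate variable in the fit the median was 0.0054.

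Transcripts of other brain cells accompanied the region. Of 15 measured markers of striatal projection neurons 6 were DE and higher (40%, against 2.31% of all transcripts) and 4 had an adjusted p under 0.05 (against 0.391%). Ppp1r1b, which encodes the dopamine-regulated phosphatase inhibitor DARPP-32, was at 2.70 to 9.94 CPM in striatum and 0 to 3.18 in PFC, and Penk, Rgs9, Six3 and Rasd2 were at medians of at most 1.21 CPM. The dopamine receptor genes Drd1 and Drd2 were not in the filtered table. Of 15 measured cortical excitatory neuron markers 4 were DE and lower in striatum (26.7%, against 0.833% of all transcripts) and 0 higher. These were the glutamatergic markers Slc17a7, Neurod2, Neurod6 and Camk2a. Of the 15, 3 had a positive log2 fold change and 1, Slc17a7, was lower with an adjusted p under 0.05 by edgeR. With the block 3 were DE and lower, and 2 had an adjusted p under 0.05. Slc17a7 was at 0.08 to 0.943 CPM in striatum and 0.93 to 4.34 in PFC (log2 -2.18 ± 0.42, SE; adjusted p = 0.00627, edgeR). Pan-neuronal markers summed to 25.2 to 46.3 CPM in striatum and 27.9 to 57.2 in PFC.

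Oligodendrocyte markers were summed at 305 to 902 CPM in striatum and 231 to 539 in PFC, higher in 11 of 11 mice. All 13 had a positive log2 fold change (median 1.18), and 3 were DE (Mbp, Ermn and Opalin, 23.1%, against 2.31% of all transcripts). With the block 5 were DE and 5 had an adjusted p under 0.05. Mbp was at 86.2 to 182 CPM and 45.1 to 171 CPM. The striatum library of mouse 9 had the highest sum. Lpl (27.6 CPM), Lgals3, Clec7a, Emp3, Naalad2, Lrp1, Axl and Spp1 were also highest in that library. A link between oligodendrocyte transcripts and the levels of these genes was not tested. Endothelial markers summed to 26.6 to 83.6 and 19.1 to 52.2 CPM, higher in 9 of 11 mice, with 0 of 12 DE by edgeR and 1 with the block. Of 7 measured ependymal markers 3 (Ccdc153, Dynlrb2 and Rsph1, 42.9%, against 2.31% of all transcripts) were DE and higher with all PFC libraries at 0. Their means in striatum were 0.073, 0.104 and 0.105 CPM, near the level of 3 counts, with a count in 8, 8 and 7 of 12 libraries. The ependymal sum was higher in striatum in 6 of 11 mice, and Rarres2 held 91.5% of it. In the fit with the marker index as a covariate Lpl, Lgals3, Clec7a, Emp3, Naalad2 and Adamts16 kept an adjusted p under 0.05 (6 of the 15 higher), as did Ggt5 (1 of the 15 lower), and all 30 kept their direction. Direction was part of how the 30 were chosen from these libraries.

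**Figure D4:**
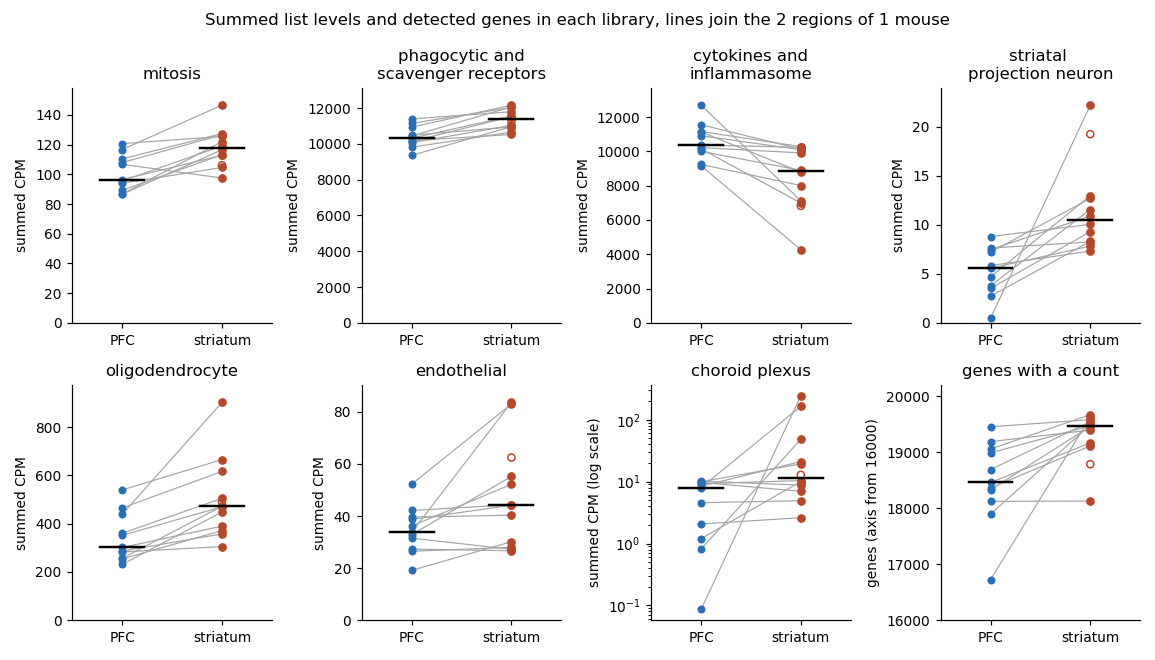
Summed CPM (vertical axes from 0, log scale for choroid plexus) of 3 microglial lists and 4 marker lists of other cells, and the number of genes with a count (axis not from 0), in each PFC (blue) and striatum (red) library; lines join the libraries of 1 mouse, the open circle is the mouse 3 striatum library and black bars are medians. The phagocytic, striatal neuron and oligodendrocyte sums and the number of genes are higher, and the cytokine sum lower, in striatum in 11 of 11 mice.

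The groups did not overlap for 4 transcripts, all higher in striatum (0.0188% of all transcripts), and for 0 lower. They were Lpl, the transcription factor gene Dmrtb1, the thyroid hormone-binding crystallin gene Crym and Lrrc10b, and they were named after their values were seen. Dmrtb1 was at 1.47, 3.0 and 7.65 CPM (lowest, median and highest) in striatum and 0, 0.105 and 0.521 in PFC. Crym was at 1.38 to 5.90 and 0 to 1.18 CPM, and Lrrc10b at 0.102 to 1.61 and 0 to 0.0209 CPM; both are known from forebrain neurons.

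Calls also moved with transcript sequence. Among 12245 transcripts of at least 1 CPM with a known length and GC content, those DE and higher had a median GC content of 54.2% and a median length of 3892 bases, those DE and lower 46.6% and 2793 bases, and all 49.5% and 3134 bases. When the transcripts were divided into 5 equal bins of GC content, 5.88% were DE and higher in the top bin and 1.35% in the bottom bin. With smooth per-library offsets for length and GC content 743 transcripts were DE, 417 higher and 326 lower, so the share of higher calls went from 73.5% to 56.1%, and 312 had an adjusted p under 0.05 (123 higher, 189 lower). The 15 higher and 15 lower named transcripts all kept their direction and an adjusted p under 0.05 with these offsets, with and without the block. These transcripts were chosen from the same libraries by adjusted p, size and direction, which largely set this outcome. With the number of detected genes as a covariate 4 of the 15 higher and 0 of the 15 lower kept an adjusted p under 0.05, and with 1 mouse or library left out 10 to 15 and 4 (without mouse 4) to 13 did.

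**Figure D5:**
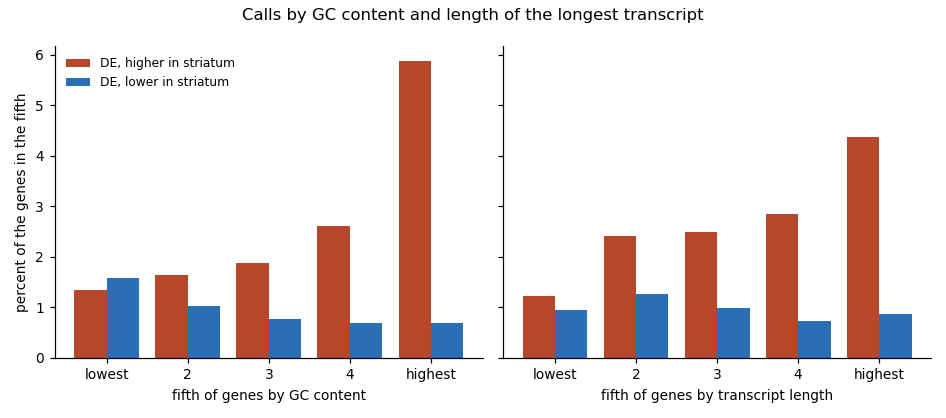
Percent of transcripts that were DE and higher (red) or lower (blue) in striatum (vertical axis, from 0) in 5 equal bins of the transcripts by GC content and by length of the longest transcript. Higher calls go from 1.35% to 5.88% across the GC bins.

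Sex was tested last. In females 4 transcripts had an adjusted p under 0.05 for striatum against PFC (Dmrtb1, Emp3, Adamts16 and Lrrc10b) and in males 0 by edgeR, with 1611 and 1409 at an unadjusted p under 0.05. Emp3 differed by 1.02 in females and 0.97 in males on the log2 scale, and Adamts16 by 0.90 and 0.46 (edgeR interaction p = 0.0409, adjusted p = 0.9999). An interaction of sex with region reached an adjusted p under 0.05 for 0 transcripts by edgeR, with 613 at an unadjusted p under 0.05 (2.89%), and for 2 by DESeq2, Slc47a1 and Brip1, named after their values were seen and both with means at or under 0.232 CPM in each region.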

How the data were processed

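Sorted tdTomato-positive cells were sequenced with Smart-Seq HT and Nextera XT libraries in paired-end mode. The authors trimmed reads (FastQC, Trimmomatic), mapped them to Ensembl GRCm38 with HISAT2 and deposited raw counts per gene, filtered for at least 1 CPM in a subgroup of sex and region; the counting tool and strand are not given in the sources used here. Counts of 35 libraries were fitted in edgeR 4.0.16 (R 4.3.3; TMM, robust quasi-likelihood) with region and sex as terms, and p-values were adjusted by Benjamini-Hochberg over 21236 transcripts. CPM are TMM-scaled; log2 fold changes are fitted coefficients. Named transcripts were the 15 largest changes each way that had an adjusted p under 0.05, averaged 5 CPM or more and moved 1 way in 10 of 11 mice or more, the members of described lists and the transcripts the study names; some of these are not reported here. Members and lists were chosen with earlier results of these data known. Same-numbered libraries come from 1 mouse, and their deviations correlated (mean r 0.242, over 0.1 in 9 of 11 mice). Coordinates and lengths are from GENCODE M21 (GRCm38). Alternatives used DESeq2 1.42.0 and sva 3.50.0. Tests were checked on simulated counts with changes only in transcripts averaging 5 CPM or more. The simulated libraries of 1 mouse were not correlated, so the check did not cover the pairing or changes at low levels.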

Additional observations from a re-analysis of the deposited data

How the results depend on the processing

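Alternatives with length and GC offsets or the number of detected genes were chosen after seeing the data. Against 667 DE transcripts, dropping the required effect across the 3 regions gave 1759, the replicate block 1032, offsets with the block 1007, mice 7 to 12 394, the detected genes covariate 352, the marker index 346 and mice 1 to 6 279. Against 121 with an adjusted p under 0.05, offsets with the block gave 942 (300 higher, 642 lower), the block 614, the block in striatum and PFC libraries alone 508, DESeq2 342, offsets 312, mice 1 to 6 37, the marker index 28, the detected genes covariate 18 and mice 7 to 12 11. Leaving out 1 mouse or library gave 501 to 672 DE and 38 (without mouse 4) to 127 with an adjusted p under 0.05; without mice 1, 2, 7, 8 and 10 the latter were 70, 70, 68, 61 and 64. Higher calls were 73.5% of DE transcripts, 53.3% with offsets and the block, 56% with the detected genes covariate, 57.8% with the marker index and 63% with 1 surrogate variable. The sex interaction gave 2 calls by DESeq2. The cause of these shifts was not tested.

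The 15 higher and 15 lower named transcripts kept their direction in all 27 alternatives. They had been chosen from these libraries by adjusted p, fold change and direction. Keeping the direction was therefore largely set by that choice and is not separate evidence. Of 1107 alternative values of all named transcripts, 250 fell short of the threshold they had passed, 15 newly passed it and 12 changed sign. Those 12 belonged to 3 genes with log2 fold changes near 0. B2m (-0.01) was 0.0137 with the marker index, 0.0743 with the surrogate variable, 0.0515 with offsets, 0.0552 with offsets and the block and 0.046 with the detected genes covariate, and between -0.0666 and 0.0415 with a mouse left out. Slc6a6 (0.06) was -0.0313 with offsets and -0.0469 with offsets and the block, and Ctsa (0.08) was -0.015 and -0.01498.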

Other observations

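Of 10 neuroblast and neural progenitor markers 3 were DE and higher in striatum (Sox11, Igfbpl1 and Nes, 30%, against 2.31% of all transcripts) and 0 lower. Of 8 measured fibroblast and meningeal markers 1 was DE and higher (Dcn, 12.5%). The summed level of the fibroblast and meningeal markers was 4.32 to 44.7 CPM in striatum and 0.752 to 16.3 in PFC, higher in 11 of 11 mice. Ptgds held 94.5% of that sum, so it mostly follows Ptgds. Erythroid markers summed to 0.906 to 95.5 CPM in striatum and 1.27 to 23.8 in PFC, with 0 of 6 DE by edgeR. T and natural killer cell markers summed to 1.71 to 37 CPM in striatum and 1.2 to 23.6 in PFC, with 0 of 8 DE by edgeR. Of 15 astrocyte markers 2 were DE and higher (Agt and Clu, 13.3%) and 1 lower (Slc39a12, 6.67%, against 0.833% of all transcripts). Of the 15, 13 had a positive log2 fold change, the median was 0.47 and 0 had an adjusted p under 0.05 by edgeR. Their sum was 308 to 576 CPM in striatum and 307 to 632 in PFC, higher in striatum in 4 of 11 mice, and Slc1a3 held 52.9% of it. Of 7 measured choroid plexus markers 2 were DE and higher (Ttr and Enpp2, 28.6%) and 1 lower (Aqp1, 14.3%). Of 10 measured interneuron markers 2 were DE and higher (the transcription factor genes Dlx1 and Dlx2, 20%) and 1 lower (10%), with a median of 0.27. The lower one was the neuropeptide gene Npy (log2 -5.01, adjusted p = 0.00201, edgeR).

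Among called transcripts with 0 counts in every PFC library, the amino acid transporter gene Slc38a5 was at least 15.3-fold higher in striatum, against a floor of 3 counts per library. Its mean in striatum was 0.961 CPM, and 8 of 12 striatum libraries had a count, with an adjusted p of 0.0589 by edgeR. By the same floor the endothelial lectin gene Clec14a was at least 5.07-fold, the lipopolysaccharide-binding protein gene Lbp at least 4.46-fold and the metalloprotease gene Adam33 at least 3.22-fold higher. Their striatum means were 0.318, 0.28 and 0.202 CPM, with a count in 9, 7 and 9 of 12 striatum libraries. For Lbp the highest count in a library was 89. Bounds of other transcripts among these 33 went down to 0.273 (Pla2g4f), and a bound under 1 shows no increase.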
